A study of Mus musculus with 6 samples.

Results

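The 32 genes described here encode the transcription factors, chaperones and enzymes of the unfolded protein response and the heat shock response. They were taken by name from the authors' count table, where all 32 had a row among 18368 genes. The genes fall into 3 arms: 16 of the ATF6/XBP1 arm, 6 of the ATF4 arm and 10 of the heat shock arm. RNA had been sequenced from haematopoietic stem cells (HSCs) sorted from the bone marrow of adult mice, about 2000 cells per library, 3 libraries with the genotype Ramp1+/+ (wild type) and 3 labelled Ramp-/- or Ramp1 Mut (mutant). No treatment is named for either group, and the sources used here give neither the sort gate, the kind of allele nor the sex of the mice. Ramp1 is the accessory protein of the receptor for the neuropeptide CGRP, and the comparison asks which transcripts of these HSCs differ with the mutation. Nothing in the labels ties a library to an animal, so the p-values measure the spread between libraries only.

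The unfolded protein response starts when misfolded proteins build up in the endoplasmic reticulum (ER). ATF6 is cut in the Golgi to release a transcription factor, IRE1 (the gene Ern1) splices the Xbp1 mRNA, and both factors switch on ER chaperones and the machinery that removes misfolded proteins. The kinase PERK (Eif2ak3) phosphorylates eIF2alpha, which lowers protein synthesis while the mRNA of Atf4 is translated more. The heat shock response is driven by HSF1, which raises cytosolic and mitochondrial chaperones. HSCs make little protein compared with their progeny and are known to be sensitive to a loss of protein quality control. Counts per gene cannot show the splicing of Xbp1, the cleavage of ATF6 or the translation of Atf4.

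The libraries held 22796771 to 26734561 gene-assigned reads. Ramp1, which checks the labels, had 90.2 ± 1.7 FPKM (fragment counts scaled to gene length and to the counted reads of the library) in the wild-type libraries against 2.51 ± 1.1 FPKM in the mutant ones (SD, n = 3 each). Of 11 HSC markers all were detected in every library, with Kit, Ly6a and Cd34 the most abundant; their summed level was 1074 to 1243 FPKM in the wild-type libraries against 1049 to 1340.0 FPKM in the mutant ones, and 5 of 11 were higher in mutant cells. Replicate 1 of both groups held 6527 (wild type) and 6137 (mutant) reads of 4 Y-linked genes, against at most 2 in the other libraries. Xist had 10 and 5 reads in these libraries, against 1456 to 3540 in the others. In both groups replicate 1 thus differed from replicates 2 and 3 in sex-linked transcripts. The split by replicate used below follows these transcripts and is not a pairing of libraries by number. The difference of each arm, and of the genes with most weight below, is therefore also given within replicate 1, which has 1 library per group and no test, and within replicates 2 and 3.

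Promoter entries were found for 26 of the 32 genes in a RefSeq table of the build GRCm38.p6, each covering 250 bases before to 50 after a transcription start. Atf6, Hyou1, Manf, Hspa8, Hsp90aa1 and Hsp90ab1 had none. The table was searched on both strands for the ER stress element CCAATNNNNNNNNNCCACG, bound by ATF6 with NF-Y. It was present in 7 of 13 genes of the ATF6/XBP1 arm, in 0 of 6 of the ATF4 arm and in 0 of 7 of the heat shock arm, and in 0.137% of all 27025 genes in the table. The 8 sites are shown because they mark the genes of the arm that share the same DNA word. Capitals mark the element, and where it lies on the other strand it reads from CGTGG to ATTGG.
Hspa5 (chr2:34772020-34772048, + strand): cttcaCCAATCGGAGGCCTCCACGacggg
Hsp90b1 (chr10:86705633-86705661, - strand): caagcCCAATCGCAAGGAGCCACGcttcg
Hsp90b1 (chr10:86705528-86705556, - strand): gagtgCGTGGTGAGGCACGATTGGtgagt
Dnajc3 (chr14:118937822-118937850, + strand): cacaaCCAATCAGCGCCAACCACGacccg
Pdia6 (chr12:17266486-17266514, + strand): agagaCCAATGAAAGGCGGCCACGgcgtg
Canx (chr11:50325795-50325823, - strand): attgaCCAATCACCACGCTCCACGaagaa
Calr (chr8:84847070-84847098, - strand): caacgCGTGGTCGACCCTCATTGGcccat
Creld2 (chr15:88819515-88819543, + strand): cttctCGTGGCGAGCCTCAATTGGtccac

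The other arms had words of their own in these windows. A heat shock element of 3 units, GAANNTTCNNGAA, was found for Hspd1, Hspe1 and Hsph1 of 7 heat shock genes with an entry, in 0 genes of the other arms and in 0.662% of all genes. Its form of 2 units, GAANNTTC or TTCNNGAA, which is part of the longer word, was found for these 3 and for Hspa1a, Hspa1b and Dnaja1, for Asns and Atf5 of the ATF4 arm, and for 17.0% of all genes. The amino acid response element TGATGNAA, a word that ATF4 binds with C/EBP partners, was found for Asns, Chac1 and Trib3 of 6 ATF4 genes, for Herpud1 of the ATF6/XBP1 arm and for 4.51% of all genes. The unfolded protein response element TGACGTGG was found for 0 of the 26 genes and 0.714% of all genes. Hspd1 and Hspe1 are transcribed away from each other from a shared stretch of chromosome 1. Between their RefSeq starts lie 2 overlapping matches of the word of 3 units, 1 on each strand, in the same DNA read from either gene. In the gene models used for counting, which overlap by 112 bases, this stretch lies inside Hspd1. The stretch is shown from both genes with both matches in capitals, and the ATF4 words, with the motif in capitals, stand beside it for comparison.
Hspd1 (chr1:55088053-55088082, - strand): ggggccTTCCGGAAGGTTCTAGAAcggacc
Hspe1 (chr1:55088053-55088082, + strand): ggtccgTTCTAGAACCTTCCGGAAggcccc
Asns (chr6:7693214-7693243, - strand): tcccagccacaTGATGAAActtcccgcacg
Chac1 (chr2:119351038-119351067, + strand): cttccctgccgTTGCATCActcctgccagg
Herpud1 (chr8:94386306-94386335, + strand): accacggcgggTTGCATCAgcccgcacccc

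No member passed the test between genotypes. edgeR's quasi-likelihood test, with Benjamini-Hochberg adjustment over 14443 genes and a threshold of 0.05, called 0 of 32 members higher and 0 lower in mutant HSCs. Over all genes tested 0.00692% were called higher and 0.0138% lower. All 32 members passed the filter on low counts, and all had an adjusted p of 0.999. DESeq2 also called 0 of the 32, as did the authors' deposited table. At an unadjusted p under 0.05, edgeR listed 3 members with higher values, Dnajc3, Atf6 and Atf5, and 0 with lower values, against 2.28% and 1.7% of all genes. The same 3 genes had all mutant libraries above all wild-type libraries in FPKM, and 0 members had them all below; over all genes these shares were 5.99% and 4.32%. An exact two-sided permutation test of 3 against 3 libraries cannot give a p below 0.1. Values were higher in mutant cells for 25 of 32 members (78.1%), against 50.1% of all genes tested. Their median log2 fold change was 0.13, beside 0.00 for all genes.

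**Figure D1:**
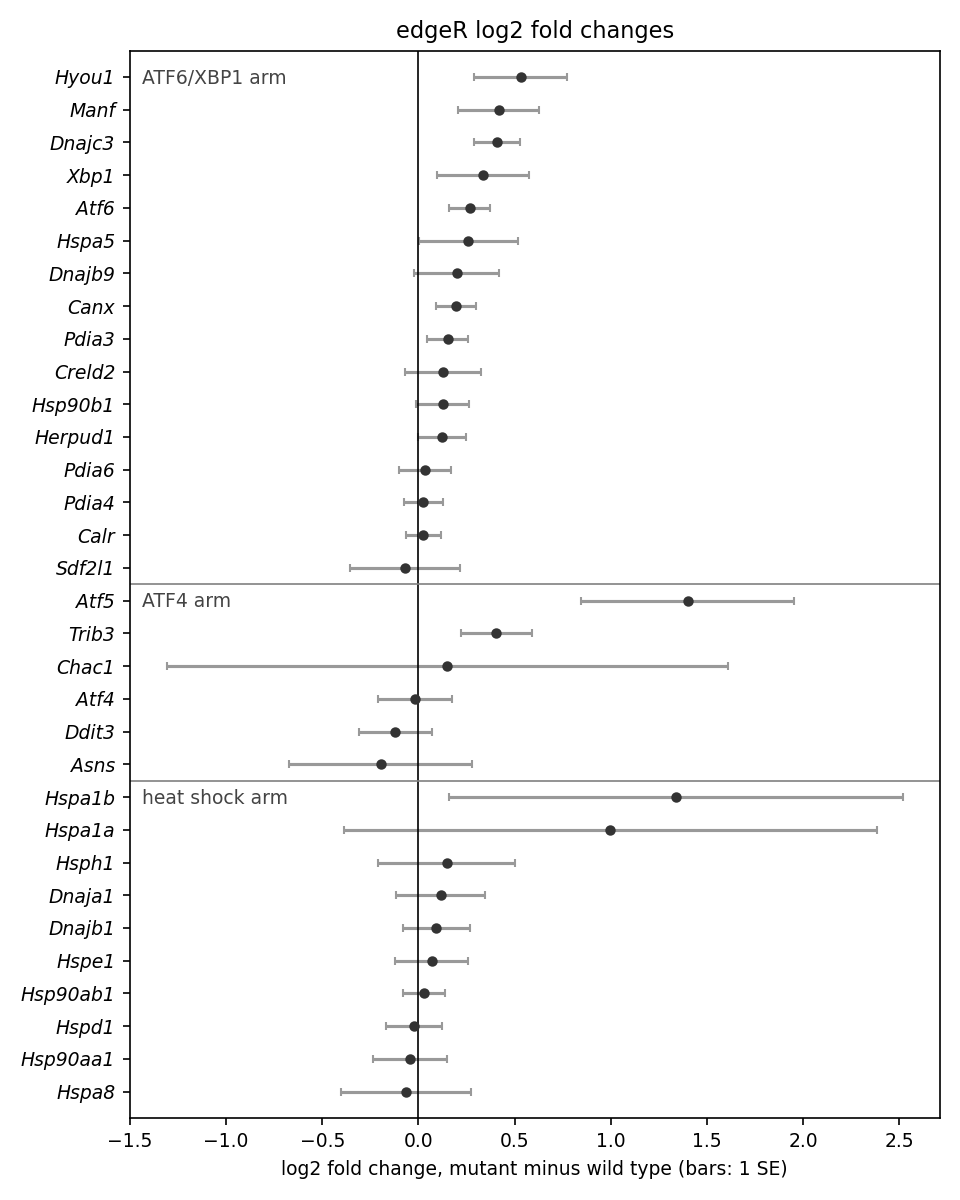
log2 fold change (mutant minus wild type, edgeR) of the 32 genes by arm; points are estimates from 3 libraries per group and bars are 1 standard error. Of the 16 genes of the ATF6/XBP1 arm 15 lie right of 0 by small amounts, while the widest bars belong to the rare transcripts Chac1, Hspa1a and Hspa1b.

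In the ATF6/XBP1 arm 15 of 16 genes had higher values in mutant HSCs. The median log2 fold change was 0.17, with a range from -0.07 (Sdf2l1) to 0.53 (Hyou1). The whole arm was expressed, from 7.33 FPKM for Atf6 to 357 FPKM for Calr as means of 6 libraries. The direction held in replicates 2 and 3, where 16 of 16 genes were higher by a median of 0.28 log2 units, but not in replicate 1, where 7 of 16 were higher and the median was -0.04. All genes tested had medians of 0.00 in both strata. Wild-type replicate 3 was the lowest of the wild-type libraries for 12 of 16 genes, against 30.4% of all genes, and without it the count of higher genes was 12 and the median 0.10.

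The 2 transcription factors that give the arm its name were measured at very different levels. Atf6 (chromosome 1, 170704674 to 170867771 in mm10), the membrane-bound sensor, had 6.91, 6.17 and 6.90 FPKM in wild-type replicates 1, 2 and 3 and 8.17, 8.39 and 7.46 FPKM in the mutant ones. The groups did not overlap, and the difference was small (log2 fold change 0.27, SE 0.11; unadjusted p = 0.0364 and adjusted p = 0.999, edgeR). It was present in replicate 1 (0.23) and in replicates 2 and 3 (0.29). The unadjusted p of Atf6 was under 0.05 in 5 of 14 alternatives, and in 1 of the 6 fits that leave out a library. Atf6 lies on the same chromosome as Ramp1, 79.5 Mb away. Xbp1 (chromosome 11, 5520659 to 5525893), the target of IRE1 splicing, had 116, 144 and 99.3 FPKM in the wild-type libraries against 102, 175 and 177 FPKM in the mutant ones. Mutant replicates 2 and 3 lay above every wild-type library, while mutant replicate 1 lay among them (log2 fold change 0.34, SE 0.24). The difference was -0.21 in replicate 1 and 0.57 in replicates 2 and 3.

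Dnajc3 had the smallest unadjusted p of the 32 genes. It encodes p58IPK, a DnaJ co-chaperone of the ER lumen that also restrains PERK. Dnajc3 (chromosome 14, 118937932 to 118981702) had 25.9, 21.9 and 23.5 FPKM in the wild-type libraries against 27.9, 35.1 and 31.5 FPKM in the mutant ones. The groups did not overlap, and the log2 fold change was 0.41 (SE 0.12; unadjusted p = 0.00916 and adjusted p = 0.999, edgeR). Within replicate 1 the difference was 0.09 and within replicates 2 and 3 it was 0.56. The unadjusted p stayed under 0.05 in 14 of 14 alternatives, and the adjusted p was 0.326 with DESeq2 and at least 0.532 in the others. For Dnajc3 the authors' deposited table gives 0.40 on the log2 scale, with an adjusted p of 0.336.

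The lumenal Hsp70 and Hsp90 chaperones varied between libraries of a group as much as between genotypes. Hspa5 encodes BiP, the central Hsp70 of the ER that also holds the stress sensors inactive. It had 221, 304 and 179 FPKM in the wild-type libraries against 193, 325 and 324 FPKM in the mutant ones. Wild-type replicate 2 was close to the higher mutant libraries, and mutant replicate 1 lay among the lower wild-type ones (log2 fold change 0.26, SE 0.26). Within replicate 1 Hspa5 differed by -0.21 and within replicates 2 and 3 by 0.49. Hyou1, a large Hsp70-related exchange factor for BiP, had 21.0, 13.1 and 16.3 FPKM against 23.2, 32 and 17.3 FPKM. Its log2 fold change was 0.53 (SE 0.24), with mutant replicate 2 far above the rest. Hsp90b1, the ER form of Hsp90, had 95.9 ± 15.9 and 105 ± 6.43 FPKM, and its groups overlapped.

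The folding enzymes and lectins were abundant in all 6 libraries. Calr, a calcium-binding lectin chaperone, was the highest of the arm, at 355, 358 and 349 FPKM in the wild-type libraries against 371, 320.2 and 389.7 FPKM in the mutant ones, with a log2 fold change of 0.03 (SE 0.09). Its membrane-bound relative Canx had 223, 209 and 201 FPKM and 222, 273 and 229 FPKM (log2 fold change 0.20, SE 0.11). Of the disulfide isomerases, Pdia3 had 272 ± 30.7 and 302 ± 11.2 FPKM, while Pdia4 and Pdia6 each differed by at most 0.04 log2 units. The groups overlapped for all 5 genes.

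The smaller members of the arm, induced by ER stress in many cell types, overlapped between the groups. Manf, a secreted ER stress protein, had 25.7, 30.8 and 20.0 FPKM in the wild-type libraries against 26.3, 37.7 and 38.1 FPKM in the mutant ones (log2 fold change 0.42, SE 0.21). Mutant replicates 2 and 3 were again the highest and replicate 1 lay between wild-type values. Dnajb9, a BiP co-chaperone, differed by 0.20 log2 units (SE 0.22), and Herpud1, which takes part in ER-associated degradation, 0.12 (SE 0.13). Creld2 had 0.13 (SE 0.20), and Sdf2l1, which works with the ER DnaJ proteins, was the gene with a lower value at -0.07 (SE 0.29). Manf overlaps the genes Vprbp and Rbm15b by 42681 and 6511 bases, and Hsp90b1 overlaps 1810014B01Rik; the sources used here do not say whether counting used strand.

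**Figure D2:**
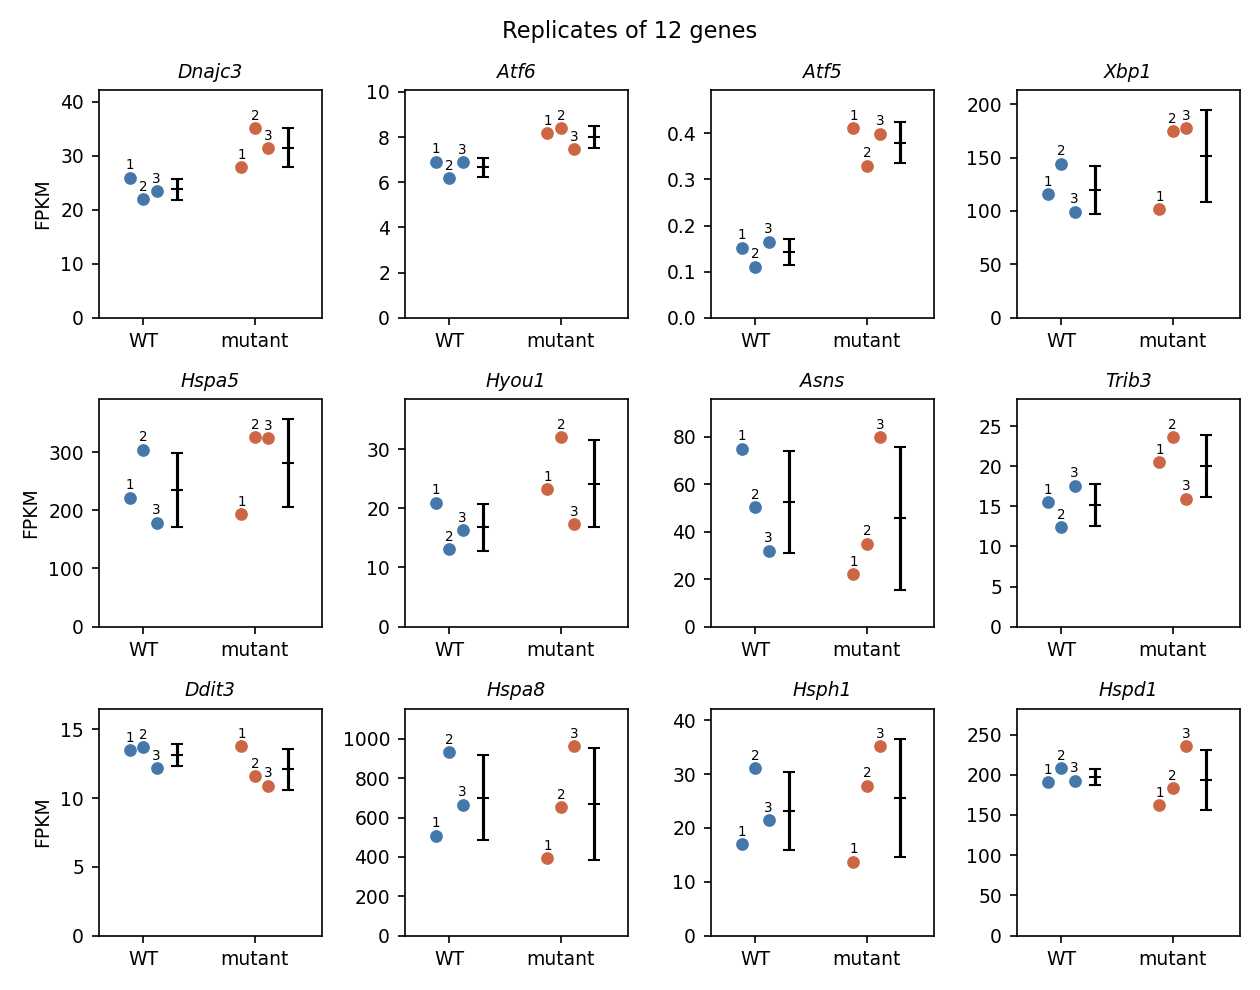
FPKM of 12 genes in each library (points, numbered by replicate) with the group mean and SD (n = 3) beside them; every axis starts at 0. Dnajc3, Atf6 and Atf5 are the genes whose groups do not overlap, while Asns and Hspa8 spread widely inside both groups.

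The ATF4 arm had 3 genes with higher and 3 with lower values, and a median log2 fold change of 0.07. In replicate 1 the mutant was higher for 4 of 6 genes (median 0.20). In replicates 2 and 3 the count was also 4 of 6 (median 0.32), but the genes were not the same. Trib3 and Atf5 were higher in both strata. Asns (-1.78 in replicate 1 and 0.40 in replicates 2 and 3), Atf4 (-0.59 and 0.25), Chac1 (3.54 and -1.44) and Ddit3 (0.02 and -0.19) changed sign. Atf4 itself (chromosome 15, 80255184 to 80257540) had 49.0, 35.9 and 38.4 FPKM in the wild-type libraries against 32.8, 37.6 and 51.1 FPKM in the mutant ones. The wild-type values lay inside the mutant range (log2 fold change -0.02, SE 0.19). Ddit3, which encodes the pro-apoptotic factor CHOP, had 13.5, 13.7 and 12.2 FPKM and 13.8, 11.6 and 10.9 FPKM, with a log2 fold change of -0.12 (SE 0.19). Ddit3 overlaps the aminoacyl-tRNA synthetase gene Mars by 68 bases on the other strand.

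The targets of ATF4 had values in both directions. Asns, the asparagine synthetase, spread more than any other member with a mean above 10 FPKM, with 75, 50.4 and 32 FPKM in the wild-type libraries against 22, 35 and 79.7 FPKM in the mutant ones. Its highest library was 3.62 times its lowest, both of them mutant, and the log2 fold change was -0.20 (SE 0.48). In replicate 1 the mutant was lower by 1.78 log2 units (-1.78), and in replicates 2 and 3 it was higher by 0.40. Trib3, a pseudokinase that restrains ATF4 and CHOP, had 15.6, 12.4 and 17.6 FPKM in the wild-type libraries against 20.5, 23.6 and 16.0 FPKM in the mutant ones. The log2 fold change was 0.41 (SE 0.18; unadjusted p = 0.0604, edgeR), and mutant replicate 3 overlapped the wild type.

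The remaining ATF4 genes were at the edge of detection. Atf5, a relative of Atf4 whose mRNA is also controlled by translation, had 7, 5 and 7 reads in the wild-type libraries against 17, 16 and 18 in mutant libraries, or 0.143 ± 0.0284 and 0.380 ± 0.0440 FPKM. The groups did not overlap (log2 fold change 1.40, SE 0.55; unadjusted p = 0.0357 and adjusted p = 0.999, edgeR). The unadjusted p of Atf5 was under 0.05 in 3 of 14 alternatives (relative log expression scaling and both limma fits), and in none of the fits that leave out a library. Atf5 overlaps Nup62, a gene with 28490 reads in the 6 libraries, by 571 bases on the other strand. Chac1, a glutathione-degrading enzyme, had 0, 10 and 32 reads in the wild-type libraries against 20, 0 and 27 in mutant libraries. A count of 0 allows up to 0.0723 FPKM in wild-type replicate 1 and 0.0685 FPKM in mutant replicate 2, for counting error only. No difference was detectable for Chac1 at this depth (log2 fold change 0.15, SE 1.46).

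**Figure D3:**
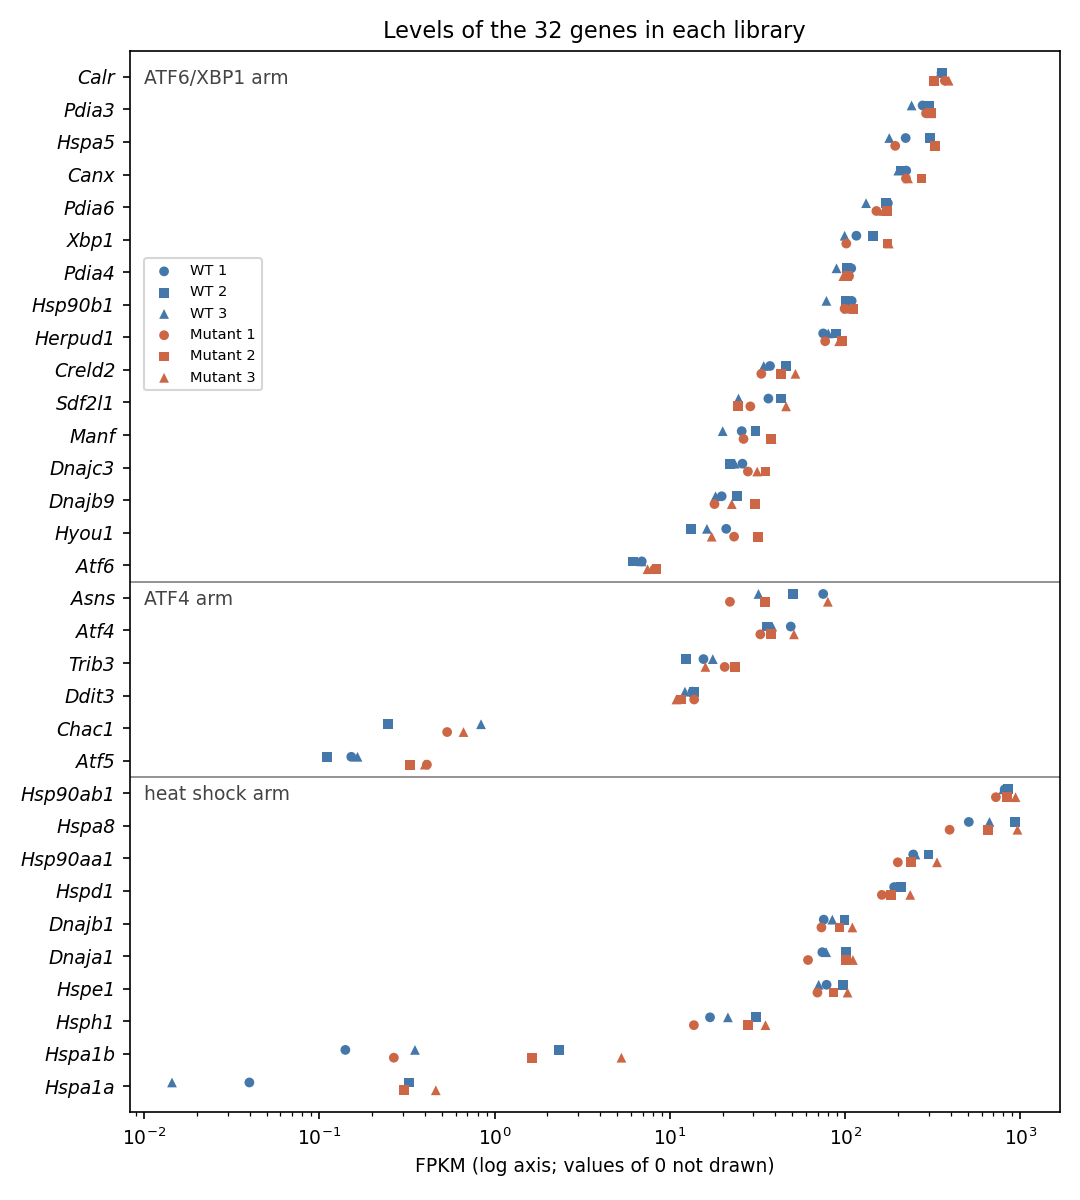
FPKM on a log axis of the 32 genes in each of 6 libraries, by arm and ordered by mean level; blue marks wild type, orange the mutant, and the marker shape gives the replicate. All values lie between 6.17 FPKM (Atf6) and 963 FPKM (Hspa8), apart from those of Atf5, Chac1, Hspa1a and Hspa1b.

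The heat shock arm held the most abundant of the 32 genes, and its mutant libraries differed from each other more than the genotypes did. The median log2 fold change was 0.08, with 7 of 10 genes higher, 0 past an unadjusted p of 0.05 and 0 with groups apart. In all 10 genes the range within the mutant group was wider than the difference between the group means. The same held for 13 of 16 genes of the ATF6/XBP1 arm and 5 of 6 of the ATF4 arm. A range of single libraries and a difference between group means are unlike measures, and the share over all genes was not computed. These counts therefore show nothing particular to the heat shock arm. Mutant replicate 3 was the highest of the 6 libraries for 10 of 10 genes, against 16.3% of all genes tested, and mutant replicate 1 the lowest for 9 of 10, against 16.6%. Among the wild-type libraries replicate 2 was the highest for 10 of 10, against 28.3%. Within replicate 1 the mutant was higher for 1 of 10 genes (median -0.27), and within replicates 2 and 3 for 10 of 10 (median 0.17). Without mutant replicate 3 the median of the arm was -0.09 and 1 of 10 genes was higher.

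The constitutive cytosolic chaperones set the level of the arm. Hsp90ab1, the constitutive Hsp90, had 814, 846 and 799 FPKM in the wild-type libraries against 725, 837 and 938 FPKM in the mutant ones, the highest mean of the 32 genes (log2 fold change 0.03, SE 0.11). Its stress-inducible relative Hsp90aa1 had 245, 299 and 252 FPKM and 199.8, 237 and 334 FPKM, or 0.276 to 0.356 times the level of Hsp90ab1. Hspa8, the constitutive Hsp70 that also serves clathrin uncoating, had 508, 932 and 667 FPKM and 395, 654 and 963 FPKM. Its highest library was 2.44 times its lowest, while the log2 fold change between genotypes was -0.06 (SE 0.34), with -0.38 in replicate 1 and 0.02 in replicates 2 and 3. In both groups the replicates were therefore farther apart than the group means.

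The inducible Hsp70 genes were nearly silent in some libraries. Hspa1b had 10, 163 and 23 reads in the wild-type libraries against 17, 123 and 368 in mutant libraries, and Hspa1a had 3, 24 and 1 against 0, 24 and 34. The 0 of mutant replicate 1 allows up to 0.0444 FPKM for Hspa1a. Both were highest in mutant replicate 3 and wild-type replicate 2 of their groups, and neither passed (log2 fold changes 1.34, SE 1.18, and 1.0, SE 1.39). Hspa1a and Hspa1b are near-identical neighbours on chromosome 17, so reads may be lost or shared between them and their separate levels are uncertain. Without mutant replicate 3 the log2 fold change of Hspa1b was 0.00.

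The co-chaperones were highest in the same libraries. Hsph1, the Hsp110 exchange factor for Hsp70, had 16.9, 31.1 and 21.4 FPKM in the wild-type libraries against 13.7, 27.8 and 35.1 FPKM in the mutant ones, a 2.56-fold span over all libraries (log2 fold change 0.15, SE 0.35). Dnaja1, a J-domain partner of Hsp70, had 74.1, 101 and 77.9 FPKM and 61.4, 101 and 111 FPKM (log2 fold change 0.12, SE 0.23). Dnajb1, the J-domain protein of the HSF1 feedback loop, had 75.5, 99.1 and 84.5 FPKM and 73.3, 92.9 and 110.0 FPKM (log2 fold change 0.09, SE 0.18). In each of the 3 genes replicate 1 was the lowest library of both groups. Dnaja1 overlaps Smu1, on the other strand, by 608 bases.

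Hspd1 and Hspe1 encode the mitochondrial Hsp60 and its lid Hsp10 and share the heat shock element matches printed above. Hspd1 (chromosome 1, 55077835 to 55088243) had 190.5, 209 and 193 FPKM in the wild-type libraries against 162, 183 and 235 FPKM in the mutant ones (log2 fold change -0.02, SE 0.15). Hspe1 (chromosome 1, 55088132 to 55091307) had 78.4, 97.6 and 70.6 FPKM and 69.5, 85.9 and 103 FPKM (log2 fold change 0.07, SE 0.19). The ratio of Hspe1 to Hspd1 stayed between 0.367 and 0.468 in the 6 libraries. Their gene models overlap by 112 bases, and both lie 36.1 Mb from Ramp1.

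**Figure D4:**
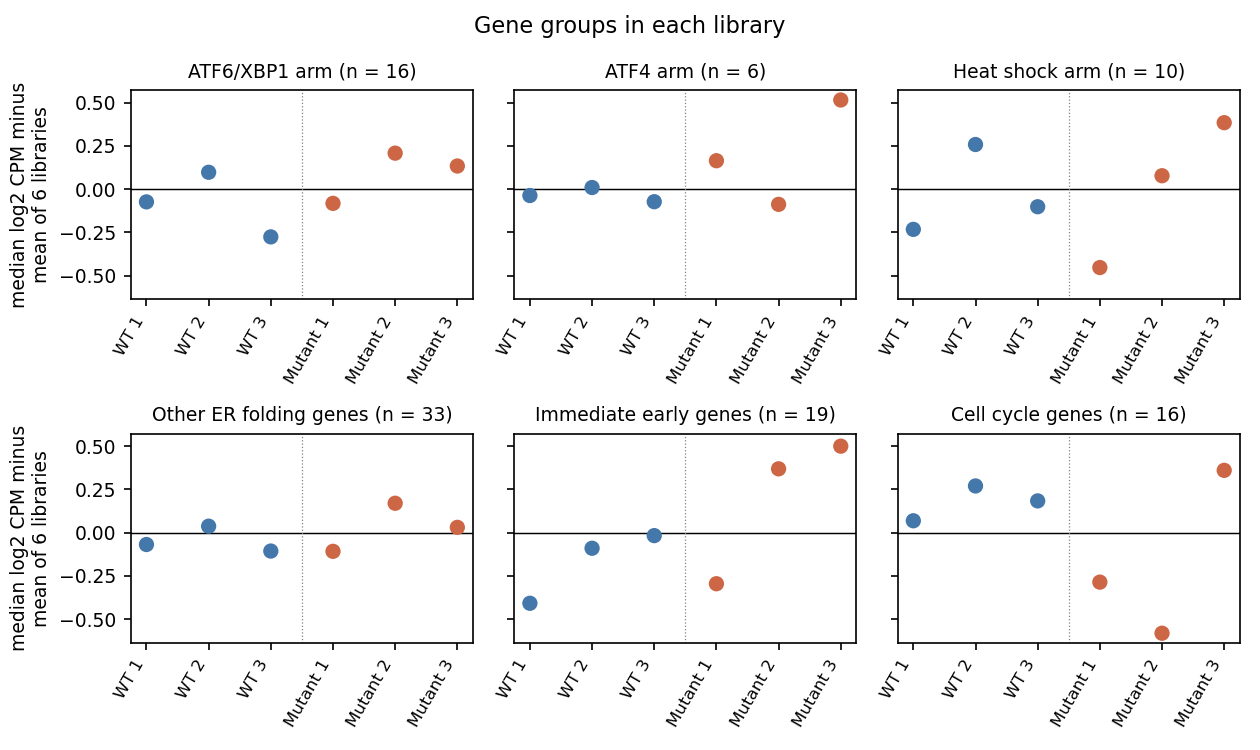
Median over the genes of a group of log2 CPM (counts scaled to library size) minus the gene's mean over the 6 libraries, for the 3 arms and 3 other gene groups; points are libraries and n is the number of genes. In the heat shock arm mutant replicate 3 (0.38) and wild-type replicate 2 (0.26) are the highest and mutant replicate 1 (-0.45) the lowest, so that both genotypes span 0.

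Other gene groups differed between the same libraries. Measured as the median deviation from the mean of all libraries, the heat shock arm lay at -0.23, 0.26 and -0.10 in wild-type replicates 1, 2 and 3 and at -0.45, 0.08 and 0.38 in the mutant ones. The ATF6/XBP1 arm lay at -0.07, 0.10 and -0.28 and at -0.08, 0.21 and 0.13. The ATF4 arm lay at -0.04, 0.01 and -0.07 and at 0.16, -0.09 and 0.51. Immediate early genes, which cell handling can induce, lay at -0.41, -0.09 and -0.02 in wild type and at -0.29, 0.37 and 0.50 in mutant libraries, with 15 of 19 tested genes higher in mutant cells and a median difference of 0.45. Their summed level was 475.6 to 606 FPKM and 443 to 775 FPKM, and Fos, for example, had 5.58 ± 3.52 and 26.9 ± 22.5 FPKM. A list of 16 cell cycle genes, added after the values were seen, lay at 0.07, 0.27 and 0.18 and at -0.29, -0.58 and 0.36, with 0 of 16 higher and sums of 984 to 1122 FPKM and 662 to 1182 FPKM. Mutant replicate 3 was thus the highest library in the ATF4, heat shock, immediate early and cell cycle groups, but not in the ATF6/XBP1 arm. It was also the highest for the neutrophil markers. Neutrophil markers lay at -3.08, 0.11 and 1.27 and at -1.0, 1.32 and 1.79; their summed level was 109 to 885 FPKM in the wild-type libraries against 256 to 1229 FPKM in the mutant ones, with S100a8 and S100a9 the most abundant on average. Among them Cebpe, Ctsg, Fcnb, Mmp9 and Retnlg were at 0 in wild-type replicate 1, and Ctsg, Elane and Fcnb in mutant replicate 1. The part of these groups in the differences of the 3 arms was not tested.

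Markers of other cell types did not pass the adjusted threshold. Higher values in mutant cells were found for 7 of 9 tested B and plasma cell markers, 8 of 12 erythroid, 2 of 8 megakaryocyte and platelet, 6 of 10 macrophage and monocyte, 0 of 4 T and NK cell and 2 of 8 endothelial and stromal markers. Of the tested neutrophil markers 12 of 14 were higher, with a median log2 fold change of 0.45. Over all genes tested the share was 50.1%. The summed macrophage markers, lowest in mutant replicate 1 as in the heat shock arm, reached 514 to 589 FPKM and 507 to 650.1 FPKM. Plasma cells carry a strong ER programme. Their receptor gene Tnfrsf17 was at 0 in 5 of 6 libraries, and the summed B and plasma cell markers reached 43.6 to 46.7 FPKM in the wild-type libraries against 43.4 to 53.9 FPKM in the mutant ones, with Cd79b (38.2 ± 3.41 and 39.2 ± 7.64 FPKM) making up most of it. The other B and plasma cell markers were at a few FPKM or less, and the list's median log2 fold change was 0.91. Its library medians lay at -0.42, 0.19 and -0.49 in wild type and at 0.27, 0.83 and 0.72 in mutant libraries, so that every mutant library was above every wild-type one. Erythroid markers had a median log2 fold change of 1.38. Their library medians lay at 0.20, 0.09 and -2.06 in wild type and at 0.37, 0.21 and 0.33 in mutant libraries. Mutant replicate 2 was barely above wild-type replicate 1, and wild-type replicate 3 was far below the rest. The summed erythroid markers reached 1186 to 1235 FPKM in the wild-type libraries against 1078 to 1322 FPKM in the mutant ones. Car2 (1160 ± 62.0 and 1058 ± 58.8 FPKM) made up most of this sum, so it says little of the other erythroid markers. The part of these markers in the values of the ER genes was not tested. In sums over sorted cells, fewer cells of a type and less RNA per cell cannot be told apart.

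Further genes of the ER programme, taken as a list, turned direction between the same replicates. Among 33 other ER folding and degradation genes, 25 were higher in mutant cells over all libraries (median 0.10), against 50.1% of all genes, and 5 had all mutant libraries above all wild-type ones, against 5.99%. Within replicate 1, however, 11 of 33 were higher (median -0.05), and within replicates 2 and 3 27 of 33 (median 0.14). Sec61g, a subunit of the ER translocon, had 27.1 ± 2.1 FPKM in the wild-type libraries against 40.8 ± 5.08 FPKM in the mutant ones (log2 fold change 0.59, SE 0.14; adjusted p = 0.877, edgeR). Vimp, a selenoprotein of ER-associated degradation, had 39.2 ± 6.17 and 52.9 ± 6.06 FPKM, and Sil1, an exchange factor for BiP, 41.1 ± 2.09 and 49.2 ± 6.33 FPKM. For Sec61g, Vimp and Sil1 all mutant libraries lay above all wild-type ones, so these genes did not turn in replicate 1. Ero1lb, an oxidase of the ER, had 5.29 ± 0.584 and 4.03 ± 1.14 FPKM, and Edem2 and Spcs3 had log2 fold changes of -0.12 and -0.08. None of the 33 passed.

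The sensors and regulators upstream were also without a call. Values were higher in mutant cells for 11 of 15 such genes, and the median log2 fold change was 0.13. Within replicate 1 this held for 6 of 15 (median -0.03), and within replicates 2 and 3 for 13 of 15 (median 0.13). Ern1, which encodes IRE1, had 8.17, 8.59 and 10.2 FPKM in the wild-type libraries against 8.12, 28.9 and 9.78 FPKM in the mutant ones (log2 fold change 0.81, SE 0.45). Its higher mutant mean rested on mutant replicate 2 alone. Eif2ak3, which encodes PERK, had 8.80 ± 0.969 and 9.60 ± 1.37 FPKM. Mbtps1, the protease that makes the first cut in ATF6, had 51.0 ± 6.73 and 51.6 ± 4.96 FPKM. Atf6b, the close relative of Atf6, had 20.0 ± 0.998 and 22.6 ± 0.654 FPKM with groups apart (log2 fold change 0.18, SE 0.10). Ppp1r15a, which reverses the phosphorylation of eIF2alpha, had a log2 fold change of 0.43 (SE 0.24). It had 18.4, 19.7 and 18.9 FPKM in wild type against 18.0, 36.1 and 22.1 FPKM in the mutant, with mutant replicate 2 highest. Eif2s1, Bcl2l11 and Wfs1 had lower values by at most 0.07 log2 units.

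Other genes of the ATF4, heat shock and mitochondrial programmes were measured from 3 further lists. Of 35 other ATF4 and integrated stress response genes 10 had higher and 25 lower values, with a median of -0.09. In replicate 1 the mutant was higher for 6 of these 35 (median -0.29), and in replicates 2 and 3 for 20 (median 0.03). The amino acid transporter Slc7a5 had -0.33 (SE 0.18), and the tRNA synthetases Aars and Tars -0.26 and -0.18; Nupr1, Ddit4 and Vldlr had 0.36, 0.64 and 0.13. Of 36 other heat shock factors and cytosolic chaperones 18 were higher and 18 lower (median -0.01). Their split was also uneven, with 7 of 36 higher in replicate 1 (median -0.19) and 26 of 36 in replicates 2 and 3 (median 0.06). Hsf1, the main heat shock factor, had 38.7 ± 1.24 and 35.3 ± 2.26 FPKM (log2 fold change -0.13, SE 0.10), and Bag1 and the chaperonin subunit Cct5 had -0.15 and -0.12. On the other side, Serpinh1, Dnajb4 and Hsf2 had 0.81, 0.22 and 0.32. Dnajb4 and Hsf2 were highest in mutant replicate 2 (45.1 and 3.65 FPKM), and their other mutant libraries lay among wild-type values. Of 14 other mitochondrial chaperones and proteases 4 were higher and 10 lower (median -0.07; 4 higher in replicate 1 and 5 in replicates 2 and 3), with Lonp1 and Afg3l2, proteases of the matrix and inner membrane, at -0.15 and -0.10, Hscb at -0.16, Grpel2 at 0.13, Clpp at 0.03 and Hspa9, the mitochondrial Hsp70, at 0.03. None passed in any of these lists, and whether the lists differ from one another was not tested.

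**Figure D5:**
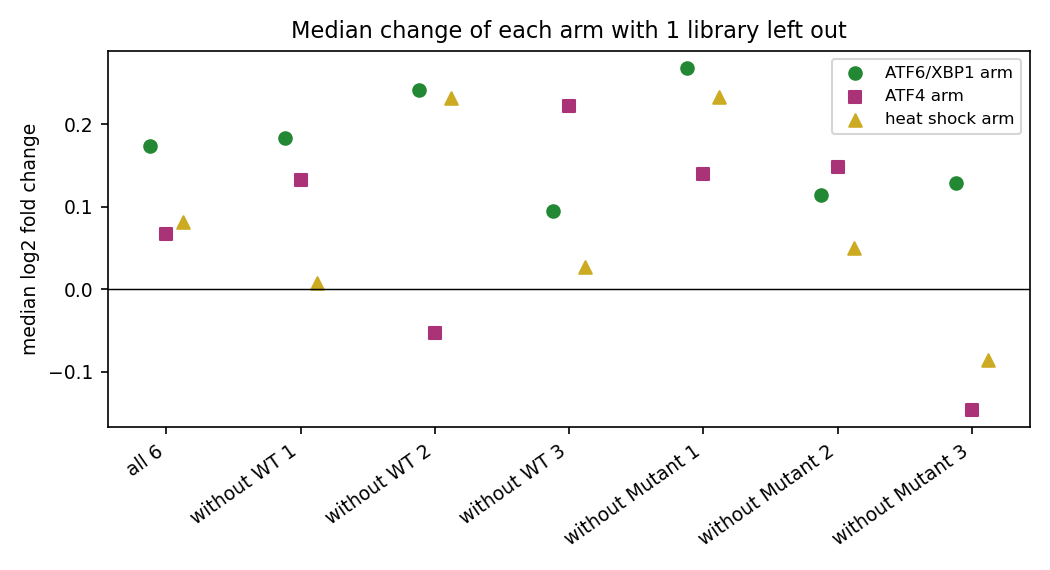
Median log2 fold change (edgeR) of each arm with all 6 libraries and with each library left out. The ATF6/XBP1 arm stays above 0, between 0.10 and 0.27, while the heat shock arm (-0.09) and the ATF4 arm (-0.15) fall below 0 without mutant replicate 3, and the ATF4 arm (-0.05) also without wild-type replicate 2.

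Leaving out 1 library at a time kept the median of the ATF6/XBP1 arm above 0, from 0.10 without wild-type replicate 3 to 0.27 without mutant replicate 1. The heat shock arm ranged from -0.09 without mutant replicate 3 to 0.23 without mutant replicate 1. The ATF4 arm ranged from -0.15 to 0.22. The count of members with higher values was 16 of 32 without mutant replicate 3 and 30 of 32 without mutant replicate 1. No member was called in any of these 6 fits.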

How the data were processed

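RNA was sequenced in 6 libraries, 3 per genotype label. Per the submitters' processing notes, DESeq2, HTSeq 0.6.1, STAR, CASAVA and the build mm10 were used, with no role or order stated; the annotation release and any use of strand are not given in the sources used here. The authors deposited 1 table with raw read counts per gene, FPKM values, counts divided by size factors (a signal, not used here), and the log2 fold changes and p-values of their own comparison. FPKM is scaled to the gene length and the counted reads of each library. A second table of FPKM was not used.

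The members and gene lists were chosen with earlier results of these data known, and the cell cycle list after the values were seen. edgeR 4.0.16 (R 4.3.3) was fitted to the counts of all genes with TMM scaling and filterByExpr (minimum count 10), leaving 14443 genes; standard errors were derived from each log2 estimate and its quasi-likelihood F. Levels are FPKM as deposited. Library deviations and the differences within replicates use log2 CPM (prior count 2). The fit was also run on simulated data, but the share of changes it recovered is not given here. The absence of calls therefore does not show that the members were unchanged. Alternatives were DESeq2 1.42.0, limma 3.58.1 on log2(FPKM + 1) and log2(FPKM + 0.1), relative log expression scaling, no filter, a threshold of 0.1, each library left out, the replicate number as a block, and Y-linked reads as a covariate or a reason to leave libraries out. All members could be named; of other lists, up to 3 genes per direction with the smallest unadjusted p and at least 1 FPKM, Ern1, Eif2ak3, Mbtps1 and Hsf1, and of marker lists the 3 most abundant and those at 0. Motifs were searched as exact words. Python 3.11.15 was used for summaries. An HSC marker is not reported here and was left out of its list.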

Additional observations from a re-analysis of the deposited data

How the results depend on the processing

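No alternative called any of the 32 members, and 13 of them kept their direction under all 14 alternatives. Among these, Dnajc3, Atf6, Atf5, Xbp1, Hyou1, Manf and Trib3 had higher values in mutant cells, and Ddit3 had lower values. Without both libraries with Y-linked reads the median log2 fold change of the ATF4 arm was 0.34, and Asns (0.48), Atf4 (0.27), Chac1 (-0.68), Hsp90aa1 (0.062), Hspa8 (0.023), Hspd1 (0.072) and Sdf2l1 (0.066) changed sign; this leaves 2 libraries per group, and the cause was not tested. Over the fits that leave out 1 library, the count of members with higher values ranged from 16 to 30. The members that changed sign there ranged from -0.89 to 0.15 (Asns), -0.23 to 0.13 (Atf4), -0.047 to 0.10 (Calr), -0.46 to 1.65 (Chac1), -0.052 to 0.29 (Creld2), -0.060 to 0.35 (Dnaja1), -0.067 to 0.25 (Dnajb1), -0.036 to 0.38 (Dnajb9), -0.29 to 0.13 (Hsp90aa1), -0.078 to 0.13 (Hsp90ab1), -0.0096 to 0.22 (Hsp90b1), -0.0025 to 3.32 (Hspa1b), -0.43 to 0.22 (Hspa8), -0.20 to 0.11 (Hspd1), -0.093 to 0.24 (Hspe1), -0.16 to 0.46 (Hsph1), -0.058 to 0.077 (Pdia4), -0.094 to 0.11 (Pdia6) and -0.40 to 0.14 (Sdf2l1).

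With the replicate number as a block 0 members were called, 25 had higher values, and the medians of the ATF6/XBP1, ATF4 and heat shock arms were 0.17, 0.02 and 0.07. Deviations of libraries with the same number correlated at 0.138, 0.00181 and -0.094, so the numbers were not taken as pairs. The count of all genes called was 3 with edgeR, 44 with DESeq2 and 6 with edgeR without mutant replicate 2. Depth limits what can be said of Atf5, Chac1, Hspa1a and Hspa1b.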
